A study of Homo sapiens with 5 samples.

Results

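A set of 48 protein-coding genes that act in antigen presentation and in the interferon response was examined for Rb binding, out of 19970 protein-coding genes of the autosomes and chromosome X. The genes were taken by name: 16 act in antigen presentation, 13 in interferon signalling and 7 in the sensing of foreign nucleic acid, and 12 are interferon-stimulated effector genes. Rb (the retinoblastoma protein) was mapped by CUT&RUN, in which a nuclease is tethered through an antibody to its target on chromatin and the DNA cut free is sequenced. ZR-75-1 cells, a long-established line of hormone receptor-positive breast cancer and here of the parental genotype, were kept for 4 days in DMSO (the vehicle) or in 500 nM abemaciclib, an inhibitor of the cyclin-dependent kinases CDK4 and CDK6. Each treatment had 2 Rb libraries, and cells in DMSO gave 1 further library with an IgG2a control antibody. Per the methods of the study the replicates were separate cultures with separate profiling reactions, and all came from 1 line. The files hold peak positions and no expression values, so neither the identity of the cells nor the activity of these genes was checked here.

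Rb is held off chromatin when CDK4 and CDK6 phosphorylate it, and unphosphorylated Rb binds E2F transcription factors at promoters. In antigen presentation, the proteasome cuts proteins into peptides, the TAP transporter carries them into the endoplasmic reticulum, and they are loaded there onto MHC class I molecules made of an HLA heavy chain and B2M. Sensors of nucleic acid switch on interferons, whose receptors signal through the JAK kinases and the STAT and IRF transcription factors, and these bind the interferon-stimulated response element (ISRE) or the gamma-activated site (GAS) in the promoters of their targets.

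The ISRE-like letters of these promoters are shown because they occurred on both sides of the comparison, at genes with and without an Rb peak. All positions are in GRCh38 (hg38), sequences were read 5′ to 3′ on the strand of the gene, and capitals mark GAAA, any 2 bases and GAAA on either strand. The first group had an Rb promoter peak in both abemaciclib libraries.

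B2M, chr15:44711366-44711395, plus strand: actctaaGAAAAGGAAACTGAAAacgggaa
TAP1, chr6:32853816-32853845, minus strand: cggccgcTTTCGATTTCGCTTTCccctaaa
TAP2, chr6:32838778-32838807, minus strand: ctggggaagcGAAAGCGAAAgctgcccgag
PSMB10, chr16:67936852-67936881, minus strand: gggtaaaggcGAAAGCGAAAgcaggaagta
IFIH1, chr2:162318821-162318850, minus strand: aattcgcTTTCCTTTTCTGTTTCccgcggt
OAS3, chr12:112938452-112938481, plus strand: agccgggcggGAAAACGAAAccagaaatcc

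The second group had no Rb promoter peak in any library.

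IFIT1, chr10:89392503-89392532, plus strand: ttagTTTCACTTTCcccTTTCGGTTTCcct
IFIT2, chr10:89301934-89301963, plus strand: ccaaTTTCACTTTCtagTTTCACTTTCcct
BST2, chr19:17405738-17405767, minus strand: tttctggGAAACTGAAACTGAAAacctaat
EIF2AK2, chr2:37156967-37156996, minus strand: agtccaagggGAAAACGAAActgagaacca
NLRC5, chr16:56989543-56989572, plus strand: cggcttctacTTTCAGTTTCgtgcagagcg

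A gene was called bound in a library when an Rb peak overlapped the stretch from 2000 bp upstream to 500 bp downstream of any of its annotated transcription start sites (TSS). In DMSO, 3 of the 48 genes were bound in replicate 1 and 5 in replicate 2. Those shares were 6.25% and 10.4%, beside 7.87% and 12.4% of the 19922 other protein-coding genes. In abemaciclib, 30 genes (62.5%) were bound in replicate 1 and 28 (58.3%) in replicate 2, beside 58% and 53.9% of the others. The mean was 29 ± 1.41 bound genes in abemaciclib and 4 ± 1.41 in DMSO (SD, n = 2 each), a difference of 25 that exceeded the spread between replicates. The two-sided exact permutation test over the 4 libraries gave p = 0.33, the smallest p that 2 against 2 allow. With every list cut to its 1438 strongest peaks, the length of the shortest, the difference was 2.5. No member had a promoter peak in the IgG2a list, beside 6 of the 19922 other genes (0.0301%).

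In all, 1438 and 2582 Rb peaks had been called in DMSO, 13960 and 12234 in abemaciclib, and 589 with IgG2a. The mean coverage of the genome implied by the peaks was between 0.521 and 0.677 fragments in every library, and it was lowest in abemaciclib replicate 2. The number of fragments over a peak summit, solved from the fold and the p-value of the peak, is used below as the height of a peak. The lowest summits in the lists held 5 or 6 fragments, so weaker binding was not detectable at this depth.

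Rb was gained at 23 of the 48 genes (47.9%, Wilson 95% interval 34.5% to 61.7%, counting error only), meaning that both abemaciclib libraries and neither of the DMSO libraries had a promoter peak. Among the other genes the gained share was 38.8%, within that interval. From lists of equal length, 2 members were gained, beside 1.11% of the others. Only 3 members (6.25%) were bound in all 4 libraries, beside 6.42% of the others. A further 2 (4.17%) were bound in both abemaciclib libraries and 1 DMSO library, beside 7.4%. Another 2 had a peak in 1 abemaciclib library alone (6.54% of the others), and 18 (37.5%) had none in any Rb library (40.7% of the others). No member had a DMSO peak without a peak in both abemaciclib libraries, beside 16 of the others (0.0803%). As a whole the list was therefore bound about as often as other coding genes: 28 of 48 in both abemaciclib libraries, or 58.3% against 52.6%.

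The 4 groups of genes differed in this count. In both abemaciclib libraries, 10 of 13 signalling genes (76.9%, interval 49.7% to 91.8%) and 11 of 16 antigen presentation genes (68.8%, 44.4% to 85.8%) were bound. The figure was 4 of 7 sensing genes (57.1%, 25% to 84.2%) and 3 of 12 interferon-stimulated genes (25%, 8.89% to 53.2%). The 52.6% of other coding genes lay inside the first 3 intervals and also, narrowly, inside the fourth, and no test between the groups was run.

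**Figure D1:**
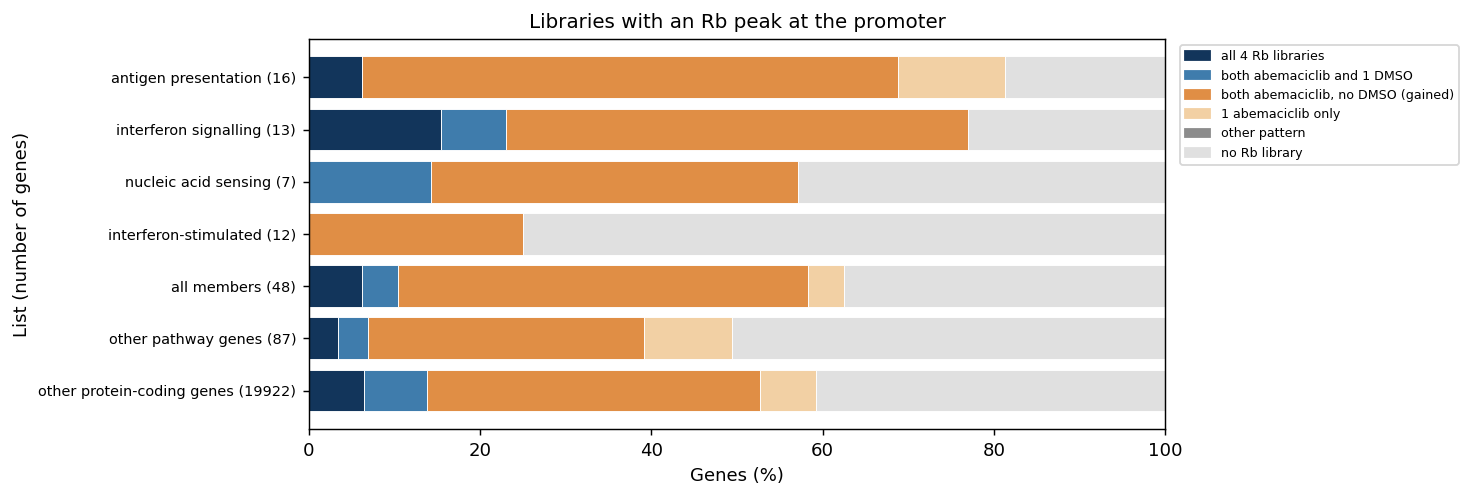
Share of genes (x axis, %) by the set of Rb libraries with a promoter peak, for the 4 groups of members, all 48 members, 87 other genes of the same pathways and the 19922 other protein-coding genes. The pale grey segment, genes with no Rb peak, spans 75% of the interferon-stimulated genes and 18.8% of the antigen presentation genes.

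Rb already occupied PSMB10, STAT2 and IRF3 in DMSO, and its summits there were higher in both abemaciclib libraries. PSMB10 encodes a catalytic subunit of the immunoproteasome, the form of the proteasome made in interferon-treated cells. Its peak (chr16:67935247-67937087) had 16 fragments at the summit in DMSO replicate 1 and 18 in replicate 2, against 115 and 90 in abemaciclib. The fold over local background was 7.68 and 6.12 in DMSO and 38.8 and 46.4 in abemaciclib, and the peak ranked 352 of 1438, 789 of 2582, 660 of 13960 and 465 of 12234. The summits lay at exon 4 or intron 4 of the canonical transcript, between 819 and 1015 bp downstream of its TSS. They were at −28 to −64 bp from the nearest annotated TSS, which was not the same one in all 4 libraries. Counted from the canonical TSS alone, PSMB10 would be a gained gene. The window of an unnamed coding gene, ENSG00000261884, takes in the same peak.

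STAT2, a subunit of the factor that binds the ISRE, had 10 and 18 summit fragments in DMSO and 51 and 50 in abemaciclib (chr12:56359734-56360861). The fold was 6.67 and 11.3 in DMSO and 31.4 and 33.5 in abemaciclib, at ranks 615, 253, 2017 and 1248 of their lists. All 4 summits were upstream of the canonical transcript.

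IRF3, the factor that sensors of nucleic acid activate through the kinase TBK1, had 9 and 9 fragments in DMSO against 93 and 77 in abemaciclib (chr19:49664093-49666641). The fold was 4.42 and 5.54, then 47.1 and 36, and the ranks were 1306, 1515, 746 and 757. The DMSO peaks were 168 and 221 bp wide and those in abemaciclib 2498 and 2542 bp, all with the summit in the 5′ untranslated part of exon 1. The gene BCL2L12 starts in the same stretch, so the peak cannot be given to one gene alone.

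JAK2 and TBK1 had a DMSO peak in replicate 2 only. At JAK2, a kinase of the interferon-gamma receptor, the summit held 9 fragments in DMSO replicate 2 and 51 and 27 in abemaciclib (chr9:4984502-4985773), with folds of 4.9, 26 and 15.7 and ranks of 1899, 2374 and 3809. At TBK1 it held 12 in DMSO replicate 2 and 72 and 53 in abemaciclib (chr12:64451633-64452935), with folds of 6.14, 35.3 and 29.7 and ranks of 1110, 1302 and 1374. Both summits in abemaciclib lay upstream of the canonical transcript at either gene.

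Divided by the mean coverage of each library, the summit at IRF3 was 10.7 times as high in abemaciclib as in DMSO, with single-library ratios between 10.2 and 11.1. The corresponding ratio was 6.79 at PSMB10 (6.49 to 7.12) and 4.14 at STAT2 (2.92 to 6.23). Against the 1 DMSO library with a peak it was 5.96 at TBK1 and 4.87 at JAK2. At all 5 genes both abemaciclib summits were therefore higher than every DMSO summit called. At PSMB10, STAT2 and IRF3 this was by more than replicates differed. JAK2 and TBK1 had 1 DMSO summit each, so the spread in DMSO is not known there. Among 1004 other genes bound in all 4 libraries whose heights could be solved, the median ratio was 7.12, with quartiles of 5.87 and 8.57. This leaves out 274 of the 1278 such genes, since the very strongest peaks could not be solved.

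**Figure D2:**
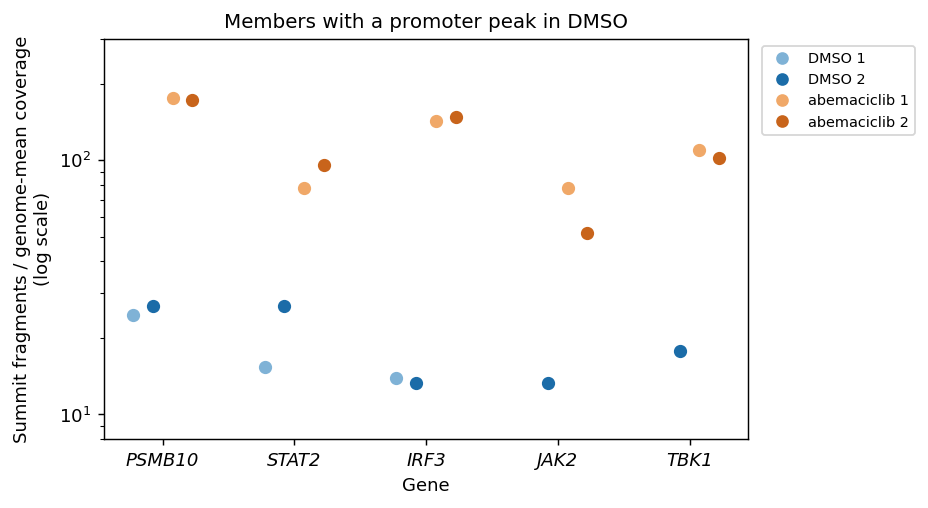
Fragments over the summit of the strongest promoter peak divided by the mean genome coverage of that library (y axis, log scale) at the 5 members with a DMSO peak; each point is 1 library and a missing point means no peak. Every abemaciclib point lies above every DMSO point of the same gene, and the widest separation is at IRF3.

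Among the antigen presentation genes, Rb was gained at 10 of 16 (62.5%, interval 38.6% to 81.5%, which holds the 38.8% of other genes). PSMB8 and PSMB9, the other immunoproteasome subunits, shared a peak at chr6:32844057-32845124 with 70 and 54 summit fragments in abemaciclib. The folds were 37.2 and 30.9 and the ranks 1276 and 1293, the best of all gained members. This peak lay upstream of the canonical start of PSMB8 and over an alternative start of PSMB9. A second peak (chr6:32853011-32854515) covered the divergent starts of PSMB9 and TAP1, which encodes a TAP transporter subunit, with 27 and 37 fragments. Its summit fell on the same base, 32853945, in both libraries. Neither peak was present in DMSO.

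ERAP1, an aminopeptidase that trims peptides in the endoplasmic reticulum, had 51 and 34 summit fragments in abemaciclib (chr5:96807223-96808604), with folds of 29.4 and 21.8 and ranks of 2146 and 2582. Both summits lay in intron 1, at 281 and 284 bp from the canonical TSS. At its neighbour ERAP2, another such aminopeptidase, there was no peak. The nearest abemaciclib peaks, at the promoter of LNPEP, were 21.2 and 21.4 kb from the closest annotated ERAP2 start, and further from the canonical one. Distances to a nearest peak are given throughout from the closest annotated start of the gene, which can be far from its canonical start.

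B2M, the light chain of MHC class I, had 38 and 29 fragments (chr15:44710969-44712170), and PATL2 starts in the same stretch. CIITA, the transactivator of MHC class II genes, had 31 and 18, at 1914 and 1930 bp downstream of the canonical start, in intron 1. TAP2, the partner of TAP1, had 16 and 14. TAPBP, which bridges TAP and class I molecules, had 13 and 7, in intron 3. Those 4 were gained, although CIITA had no peak, and TAPBP a peak in replicate 1 only, if the canonical start alone was counted.

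The HLA heavy chain genes carried weak peaks or none. HLA-C had 6 and 12 summit fragments in abemaciclib and HLA-E had 10 and 5, where the weakest peaks of either list held 5. HLA-F had 8 in replicate 1 and no peak in replicate 2. HLA-B had none, and its nearest peak was 32.5 kb away in replicate 1 and 32.4 kb away in replicate 2, at the promoter of MICA. These genes belong to a family of similar sequence, so the placement of reads among them is uncertain, and its part in these heights was not tested. CD274, the ligand of the inhibitory receptor PD-1, had 10 fragments in replicate 1 alone. NLRC5, the transactivator of MHC class I genes, had no peak. The nearest, at the promoter of CPNE2, were 10.9 and 11.2 kb from the closest of the 28 annotated NLRC5 starts. They lay beyond the end of NLRC5, far from its canonical start (peak from 57091910 in replicate 1, canonical TSS at 56989557).

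**Figure D3:**
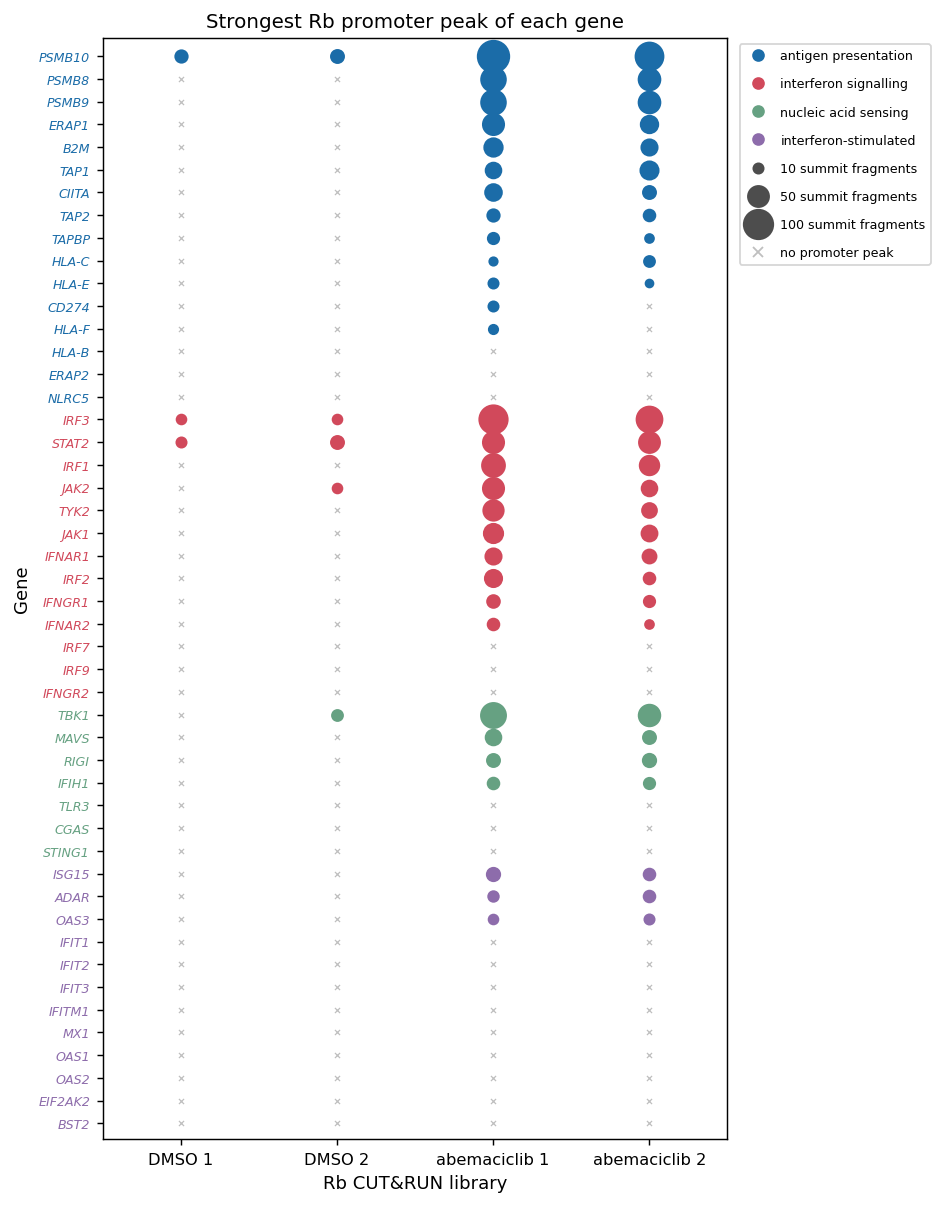
Strongest Rb promoter peak of each of the 48 genes (rows, grouped by role and ordered by height) in the 4 Rb libraries (columns); the area of a dot grows with the fragments over the summit and a cross means no promoter peak. The 2 DMSO columns hold 3 and 5 dots, and most interferon-stimulated genes at the foot have crosses throughout.

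In interferon signalling, Rb was gained at 7 of 13 genes (53.8%, interval 29.1% to 76.8%, which holds the 38.8% of other genes). IRF1, a transcription factor induced by interferon-gamma, had 60 and 43 summit fragments at its canonical start (chr5:132489972-132491219), with folds of 30.6 and 24.7 and ranks of 1807 and 1957. A second IRF1 peak at an upstream start had 30 and 21. IRF2, which competes with IRF1 for its sites, had 33 and 14, and the stronger of its 2 peaks was not the same one in both libraries.

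TYK2, a kinase of the type I receptor, had 47 and 24 fragments (chr19:10380117-10381421), with folds of 24.1 and 11.5 and ranks of 2719 and 5088. JAK1, which serves both receptor types, had 42 and 28 (chr1:65066308-65067726), with folds of 26 and 19.1 and ranks of 2749 and 3186. That JAK1 peak was at a distant alternative start, at −100319 and −100083 bp from the canonical TSS, where a separate peak held only 10 and 7 fragments. IFNAR1 and IFNAR2, the type I receptor chains, had 29 and 21 fragments, and 14 and 7 fragments. IFNGR1, the ligand-binding chain for interferon-gamma, had 17 and 13.

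IRF7, IRF9 and IFNGR2 had no promoter peak in any library. At IFNGR2, the other interferon-gamma receptor chain, a peak of 7 fragments in abemaciclib replicate 2 began 698 bp downstream of a start, just beyond the window. IRF9, the DNA-binding partner of STAT2, lay 13.2 and 13.3 kb from a strong abemaciclib peak of 110 and 104 fragments at the PSME2 and RNF31 promoters, which was also called in DMSO with 16 and 18 fragments. For IRF7, which amplifies interferon production, the nearest abemaciclib peaks were 36.5 and 36.8 kb away at PHRF1.

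Among the sensing genes, Rb was gained at 3 of 7 (42.9%, interval 15.8% to 75%, which holds the 38.8% of other genes). These were MAVS, RIGI and IFIH1, and TBK1 is described above. MAVS, the mitochondrial adaptor of the RNA sensors, had 27 and 18 summit fragments in abemaciclib (chr20:3846265-3847426), with folds of 16.9 and 12.5 and ranks of 4713 and 5274. RIGI, a sensor of viral RNA, had 18 and 19 fragments. IFIH1, another such sensor, had 14 and 13, and its peak also reached the start of GCA. CGAS, the sensor of cytosolic DNA, and STING1, its adaptor, had no peak. Their nearest abemaciclib peaks were 8.93 and 9.02 kb away at MTO1, and 75.4 and 75.5 kb away at SPATA24. TLR3, a sensor of RNA in endosomes, had none either, with the nearest 63.4 kb away at FAM149A in both libraries.

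Of the 12 interferon-stimulated genes, IFIT1, IFIT2, IFIT3, IFITM1, MX1, OAS1, OAS2, EIF2AK2 and BST2 had no Rb promoter peak in any library. The IFIT genes encode proteins that bind foreign RNA, and the nearest abemaciclib peak to IFIT1 was 21.7 kb away in replicate 1 and 251 kb away in replicate 2. MX1, a GTPase that blocks virus replication, was 227 kb from the nearest peak in either library. For EIF2AK2, a kinase that halts translation, the nearest peak was 24.6 and 24.7 kb from its closest annotated start, and further from the canonical one. At BST2, which tethers budding virus to the cell, a peak of 7 fragments in replicate 1 lay 849 bp downstream of an alternative start, outside the window. This peak (chr19:17403464-17403688) was further from the canonical start at 17405630. It overlapped the promoter of BISPR, a long non-coding RNA.

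ISG15, a ubiquitin-like protein, and ADAR, an RNA-editing enzyme, were gained only through alternative starts. The stronger peak at ISG15 (chr1:999230-1000715 in replicate 1) had 19 and 14 fragments, with folds of 11.9 and 9.81 and ranks of 6658 and 6693. Its summit was at −13136 and −13279 bp from the canonical TSS, over the promoter of HES4. The peak at ADAR had 11 and 14 fragments, at −19456 and −19341 bp. OAS3, a synthetase that activates RNase L, was therefore the sole interferon-stimulated member with a peak at its canonical start. That peak was weak, with 9 and 10 fragments, and lay 22.9 and 22.7 kb from OAS1 and 39.7 kb from OAS2. With the canonical start alone, the count for this group fell from 3 to 1 of 12.

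Where a member was bound, its strongest peak was of ordinary height. The median position in the list of peaks ordered by p-value was the top 36% and 41.7% in abemaciclib replicates 1 and 2, beside 38.1% and 40% for the other bound genes. The median summit held 28 and 20 fragments, beside 26 and 21. The signalling genes had medians of 44.5 and 25.5, and the 3 bound interferon-stimulated genes 11 and 14. At 7 members the strongest peak had at most 10 fragments in an abemaciclib library, and 5 of those were gained genes. The strongest peak also touched the promoter of another coding gene at 10 of 30 members in replicate 1 and 10 of 28 in replicate 2 (33.3% and 35.7%), beside 31.3% and 31.7% for the others.

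Since binding was defined by start sites, the summits lay near them. Of the bound members, 27 of 30 in abemaciclib replicate 1 and 25 of 28 in replicate 2 had the strongest summit within 500 bp of an annotated TSS, and 21 and 19 within 500 bp of the canonical one. As shares these were 90% and 89.3%, beside 92.4% and 92.4% of other bound genes, and for the canonical start 70% and 67.9%, beside 81.3% and 81.5%. By the canonical transcript, 16 and 14 summits were upstream, 5 and 4 in the 5′ untranslated region, 7 and 8 in an intron and 2 and 2 in a coding exon. The summits of PSMB9, JAK1, ISG15 and ADAR were more than 2000 bp from the canonical TSS.

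**Figure D4:**
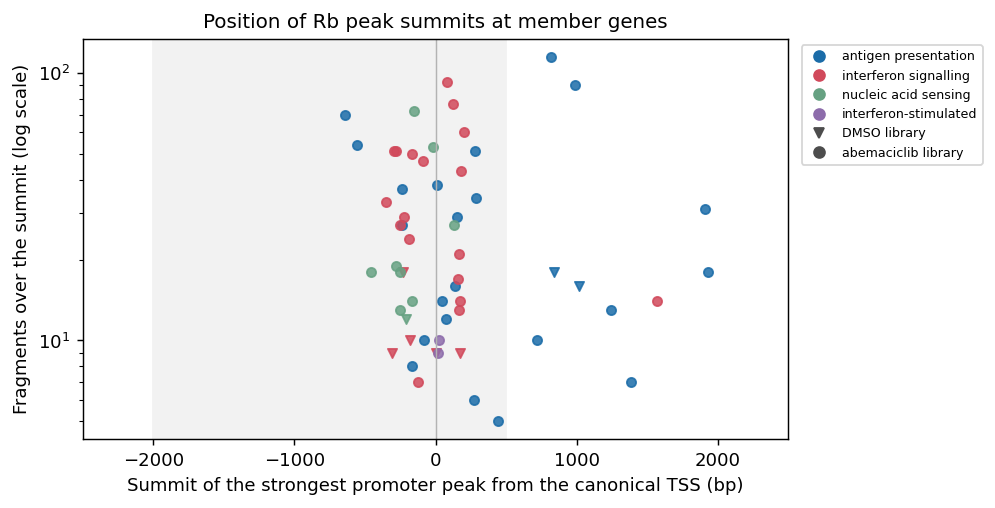
Distance of the strongest promoter peak summit from the canonical TSS in bp (x axis, downstream to the right) against the fragments over that summit (y axis, log scale), 1 point per gene and Rb library; the shaded band is the promoter window. PSMB9, JAK1, ISG15 and ADAR lie outside the plotted range in abemaciclib, and the highest point is PSMB10 with 115 fragments.

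Over all members, promoters richer in CpG were bound more often. CpG observed over expected (the number of CpG pairs divided by that expected from the C and G content) was computed from 250 bp before to 50 bp after the canonical TSS. Its median was 0.76 over the members and 0.776 over the other coding genes, but 0.353 over the interferon-stimulated genes. Above 0.6, 25 of 34 members (73.5%) were bound in both abemaciclib libraries, beside 71.1% of other genes in that class. Below 0.4, 2 of 11 members (18.2%) were bound, beside 9.6%. Those 2 were PSMB10 (0.329) and CIITA (0.183), and both had the summit away from the canonical start. Within the interferon-stimulated genes, none of the 6 below 0.4 was bound and 3 of the 5 above 0.6 were, although 2 of those 3, ISG15 and ADAR, had no peak at the canonical start where CpG was counted. By CpG at the canonical start, 2 of 3 antigen presentation genes were bound below 0.4 and 8 of 12 above 0.6. That share did not differ (66.7% in either class), but the 2 were PSMB10 and CIITA. About their abemaciclib summits in replicates 1 and 2, the ratios were 0.891 and 0.643, and 0.752 and 0.613. TAP1, PSMB8 and PSMB9 went the other way, from above 0.6 at the start to below it about both summits. B2M and HLA-C did so in replicate 2. Unbound genes have no summit, so shares by CpG at summits were not compared. The part of CpG content in the differences between the groups was not tested.

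The exceptions ran both ways, as 7 of the 18 members with no Rb peak had a ratio above 0.6. The 200 bases before or close to the start of 4 genes are printed to show this range, with CpG pairs in capitals. IFNGR2 (30 pairs, ratio 0.926) and ERAP2 (1 pair, 0.248) were unbound, and IRF1 (22 pairs, 0.89) was bound at its start. ISG15 (14 pairs, 0.752) had its peaks elsewhere.

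IFNGR2, chr21:33403213-33403412, plus strand: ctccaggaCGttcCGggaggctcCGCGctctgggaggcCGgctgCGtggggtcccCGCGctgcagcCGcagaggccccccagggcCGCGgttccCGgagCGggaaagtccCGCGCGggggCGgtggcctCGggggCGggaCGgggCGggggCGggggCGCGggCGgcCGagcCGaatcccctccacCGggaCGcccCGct
IRF1, chr5:132490778-132490977, minus strand: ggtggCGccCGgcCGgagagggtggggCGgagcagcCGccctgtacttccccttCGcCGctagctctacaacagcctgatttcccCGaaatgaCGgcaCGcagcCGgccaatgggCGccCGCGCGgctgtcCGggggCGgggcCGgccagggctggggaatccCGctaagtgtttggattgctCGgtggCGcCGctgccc
ISG15, chr1:1013297-1013496, plus strand: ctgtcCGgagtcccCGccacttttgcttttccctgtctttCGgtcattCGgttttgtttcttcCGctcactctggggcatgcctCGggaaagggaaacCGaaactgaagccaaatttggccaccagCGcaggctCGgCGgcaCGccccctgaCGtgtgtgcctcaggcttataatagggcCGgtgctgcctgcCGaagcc
ERAP2, chr5:96876300-96876499, plus strand: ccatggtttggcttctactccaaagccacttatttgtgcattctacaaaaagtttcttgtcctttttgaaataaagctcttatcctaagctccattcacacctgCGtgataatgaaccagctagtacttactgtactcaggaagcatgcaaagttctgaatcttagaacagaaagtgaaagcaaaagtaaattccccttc

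**Figure D5:**
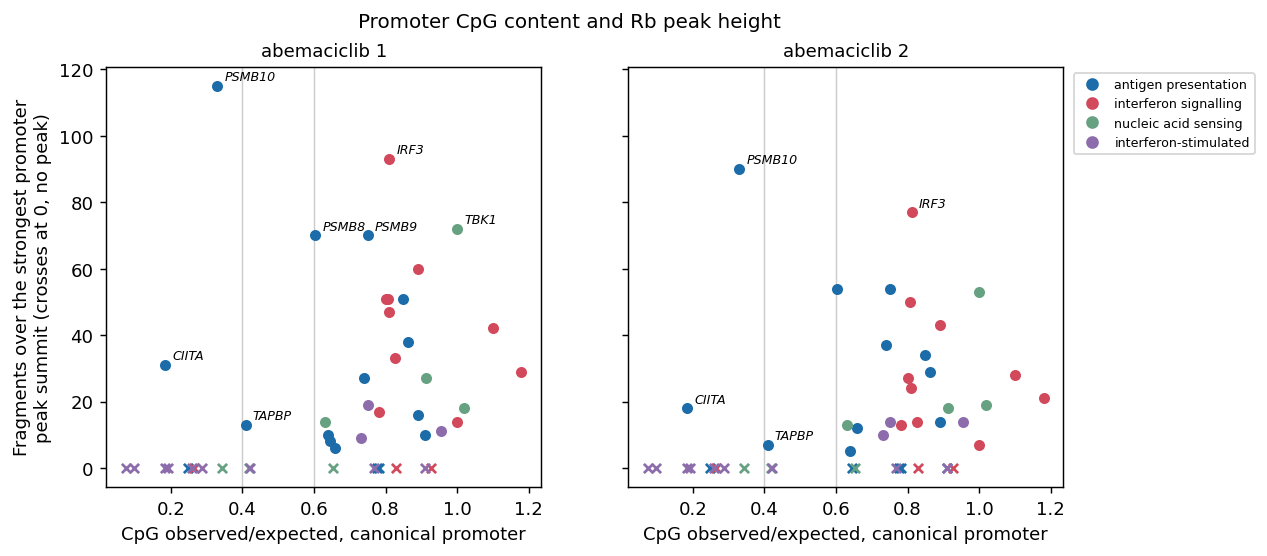
CpG observed over expected at the canonical promoter (x axis) against the fragments over the strongest promoter peak summit (y axis) for the 48 genes in each abemaciclib library; crosses at 0 are genes with no peak, and the vertical lines are at 0.4 and 0.6. Bound genes crowd above 0.6, where 25 of 34 members were bound in both libraries, and PSMB10 stands apart with a ratio of 0.329 and the highest summit.

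The ISRE letters (GAAA, any 2 bases, GAAA), sought on both strands in the same 300 bases, were held by 24 of the 48 members (50%), beside 3.18% of the other coding promoters. They were in 12 of 16 antigen presentation promoters, 10 of 12 interferon-stimulated ones, 2 of 7 sensing ones and none of 13 signalling ones. Of the 24 members with a match, 12 (50%) were bound in both abemaciclib libraries, and of the 24 without, 16 (66.7%). Among other genes the shares were 37.9% with and 53.1% without. All 3 bound interferon-stimulated genes had a match, as did 7 of the 9 unbound ones. The match was sought at the canonical start, where ISG15 and ADAR had no peak. The letters thus occurred on both sides there, but on the bound side only OAS3 had a peak at the start that held them. At the summits themselves, 3 of 30 windows of 200 bases in replicate 1 and 1 of 28 in replicate 2 held the match. Summit windows of other genes were not counted, so there is no reference share for these counts.

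The GAS letters TTCNNNGAA were in 10 members (20.8%), beside 6.47% of others. Of those 10, 3 (30%) were bound in both abemaciclib libraries, and of the 38 without a match, 25 (65.8%). Among other genes the shares were 43.1% with and 53.3% without. The GAS letters are shown, in capitals, for a bound member and for 2 unbound members of the same family.

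IRF1, chr5:132490879-132490908, minus strand: aacagcctgatTTCCCCGAAatgacggcac
IRF7, chr11:615987-616016, minus strand: ggcgcgcgcccTTCCCGGAAactcccgcct
IRF9, chr14:24161191-24161220, plus strand: gaccacgtgatTTCTGGGAAaaggccctcc

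E2F-like letters (TT, then 2 bases that are each C or G, then CGC, on either strand) were in 8 members (16.7%), beside 17.1% of the other promoters. In these 300 bases at the canonical start they were in no antigen presentation promoter and in 3 of 7 sensing promoters. Members with a match were bound in 5 of 8 cases (62.5%) and those without in 23 of 40 (57.5%), beside 73.8% and 48.3% of other genes. Bound IRF3 and TBK1 and unbound MX1 are shown with the match in capitals. In the 200 bases about the strongest summit, 6 of 30 members in abemaciclib replicate 1 and 8 of 28 in replicate 2 held such letters. Those included ERAP1 and TAP2 in both libraries and CIITA and TAPBP in replicate 2. Again, summit windows of other genes were not counted, so no reference share stands beside these counts.

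IRF3, chr19:49665967-49665996, minus strand: attagttcaactTTCCCGCgcctgcgcact
TBK1, chr12:64451997-64452026, plus strand: ccgactcggcagTTGCCGCcgcggctgtgg
MX1, chr21:41426071-41426100, plus strand: gtctcccgcgagTTCCCGCgaggcaagtgc

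The GC box (GGGCGG) was in 28 members (58.3%, beside 61.3% of others), including 12 of 13 signalling genes and 4 of 12 interferon-stimulated genes. It was held by 19 of the 28 members bound in both abemaciclib libraries (67.9%) and by 8 of the 18 with no peak (44.4%). Among other genes the shares were 78.1% of those bound and 37.9% of those with no peak. CCAAT, the NFY pattern, was in 21 members (43.8%, beside 36%), and the CHR pattern TTTGAA in 4 (8.33%, beside 11.5%). A match of letters is a description of the sequence and not evidence of a factor.

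Outside coding promoters, 9 of the 48 genes (18.8%) had a peak in the gene or within 50 kb of a start in both abemaciclib libraries, beside 13.5% of the other genes. The strongest by far lay in the MHC region at chr6:32894099-32895251, between 38.4 and 49.8 kb from starts of PSMB9, TAP1 and PSMB8. It was called in all 4 libraries, with 13 and 11 summit fragments in DMSO and 96 and 80 in abemaciclib, and overlapped the promoters of 2 long non-coding RNAs and the pseudogene HLA-Z. The same peak therefore accounts for 3 of the 9 genes. No link between it and those genes was measured here.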

How the data were processed

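Rb CUT&RUN and IgG2a peak lists from ZR-75-1 cells were analysed. The authors trimmed paired-end reads, aligned them to hg38 with Bowtie2 2.3.4.1, removed mitochondrial and blacklisted reads, kept duplicates, so that a summit may count copies of 1 molecule, and called peaks per library, not on pooled libraries, using MACS2 2.2.7.1 at a q-value of 0.05 against IgG. Each deposited list gives, per peak, a fold, the −log10 p-value and the −log10 q-value. The fold is the pileup at the summit plus 1, divided by the local background plus 1. Groups and replicate numbers came from the sample titles. The 48 members, their 4 groups and the list of 87 other pathway genes were chosen with earlier results of these data known.

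The lists hold no counts over common regions, so no differential count model was run, and a region just under the threshold has no peak. Depth is known only through the lists. The summit fragments and local background of a peak were solved as the whole number that gives both its deposited fold and its −log10 p (relative tolerance 1e-05). This worked for 97.11% to 99.85% of peaks, and the method was tested on simulated peaks. The genome-mean coverage was taken as the lowest recurrent local background. Fold and rank describe a peak within its own library.

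Promoters ran from 2000 bp upstream to 500 bp downstream of any GENCODE 44 TSS, and an overlap of 1 bp counted. Genes given in full were the members with a DMSO peak and the 6 gained members with the best mean rank in abemaciclib. The best-ranked gained sensing and interferon-stimulated member were also given in full. Members without a peak were given by the distance from the closest of their annotated starts to the nearest peak. Of the other pathway genes, those with a peak in both DMSO libraries and the 3 best-ranked gained genes of each group were named. Shares carry Wilson intervals at 95% confidence, which cover counting error only. Sequences were read from hg38. The alternatives were other q-values, windows, starts, overlap rules, equal list lengths, peaks without IgG2a overlap and each replicate left out. Python 3.11.15, NumPy 2.4.6, SciPy 1.17.1 and matplotlib 3.10.9 were used.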

Additional observations from a re-analysis of the deposited data

How the results depend on the processing

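Of 99 values from 15 alternatives for 7 results, 90 stayed within 1.5 times the value given. The number of peaks mattered most. With the 1438 strongest peaks of every library, 2 members were gained (23 before), beside 1.11% of other genes. In both abemaciclib libraries 5 members were bound, beside 7.46% of other genes. In all 4 libraries 1 was bound, beside 4.38% of other genes, and 42 were bound in none, beside 87.4% of other genes. In that setting 3 antigen presentation genes and 0 interferon-stimulated genes were bound in both abemaciclib libraries, and the difference in bound members per library was 2.5. With the canonical start alone, 1 interferon-stimulated gene was bound. Without 1 library at a time, the count bound in all Rb libraries ran from 3 to 5, and 5 came without DMSO replicate 1, when JAK2 and TBK1 joined. The difference per library ran from 24 to 26, the gained count from 23 to 25 and the count with no peak from 18 to 20. The count bound in every abemaciclib library kept ran from 28 to 30, and that of antigen presentation genes from 11 to 13. The higher values, 30 and 13, are those of abemaciclib replicate 1 alone. Keeping only abemaciclib peaks with over 10 summit fragments was an alternative chosen after seeing the data. It left 18 gained members, beside 30.1% of other genes, and 22 with no peak, beside 48.3% of other genes. With the replicate numbers as pairs (a replicate block, also added later), the differences were 27 and 23 members, mean 25, and the two-sided exact sign-flip test gave p = 0.5, the smallest that 2 pairs allow. The labels give nothing but a shared number to pair these libraries.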

Other observations

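A list of 87 other genes of the same pathways was also bound least among interferon-stimulated genes. Rb was bound in both abemaciclib libraries at 10 of 15 other signalling genes (66.7%), 10 of 18 other sensing genes (55.6%), 9 of 18 other antigen presentation genes (50%) and 5 of 36 other interferon-stimulated genes (13.9%), or 34 of 87 (39.1%) in all. Beside them, 52.6% of the 19922 coding genes outside the 48 were bound. The list was written with earlier results of these data known, so it gives no independent support. No Rb peak was found at 25 of the 36 other interferon-stimulated genes (69.4%).

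Of these genes, 3 were bound in all 4 libraries. CANX, the chaperone calnexin that folds MHC class I chains, had 23 and 29 summit fragments in DMSO and 129 in abemaciclib replicate 2. Its peak in abemaciclib replicate 1 was too strong to be solved, and the folds were 13.2 and 16.1 in DMSO and 100 and 78.4 in abemaciclib. PTPN6, a phosphatase that dampens cytokine signals, had 17 and 32 fragments in DMSO and 147 and 122 in abemaciclib. RNASEH2C, a subunit of an enzyme that removes RNA from DNA, had 10 and 12, then 101 and 49.

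Rb was gained at 28 of the 87 genes (32.2%), beside 38.8% of the coding genes outside the 48. The best-ranked gained genes included regulators of the pathways themselves. RFXANK and RFX5, subunits of the factor that binds MHC class II promoters, had 79 and 73, and 37 and 31 fragments in abemaciclib, and CALR, another chaperone of class I chains, had 35 and 24. SOCS1, a feedback inhibitor of JAK kinases, had 52 and 38, STAT3 had 41 and 26, and PIAS1 had 27 and 16. In sensing, TRIM25, a ubiquitin ligase that acts on RIGI, had 44 and 31, RNASEH2A had 41 and 28, and TRAF6 had 29 and 14. Among the other interferon-stimulated genes, DDX60 had 48 and 24, and PARP9 and DTX3L shared a peak of 25 and 15.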
